A study of Mus musculus with 4 samples.

Results

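The Xlr, Rhox and Mage genes are multicopy families of the mouse X chromosome that are used mainly in germ cells and placenta. Members were taken as every gene whose symbol was Xlr or Rhox followed by a digit, or Magea, Mageb or Magee followed by a digit. The rule found 58 of the 26130 genes measured, made up of 9 Xlr, 30 Rhox and 19 Mage genes (9 Magea, 8 Mageb and 2 Magee). All but Mageb3, on chromosome 2, lie on chromosome X. Rhox5 is not analysed here.

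The study compared mRNA levels in mouse embryonic stem cells with and without ZFP57. This KRAB zinc finger protein keeps DNA methylation at imprinting control regions. Of 2 lines used, E14 has the strain 129P2/OlaHsd and JB1 the strain JF1/B6, and each gave 1 wild-type and 1 Zfp57-/- RNA-seq library. All 4 cultures grew feeder-free on gelatin in serum with leukemia inhibitory factor. The sources used here do not give the number of clones behind a library or which part of Zfp57 the Zfp57-/- cells lack. With 1 library per line and genotype there was no replicate check, and every interval below is a 95% interval for counting error only.

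As background, Xlr genes encode nuclear proteins related to SYCP3, a protein of the meiotic chromosome axis, and several of them are imprinted in the mouse brain. Rhox genes encode homeodomain transcription factors of testis, ovary and placenta. MAGE proteins bind RING-type ubiquitin ligases. The Magea and Mageb genes are the classical cancer-testis antigens, silent in most somatic cells, whereas the Magee genes are also used in the brain. Promoter DNA methylation is known to keep many genes of these families silent outside the germ line.

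Levels are given in RPM, reads per 1000000 of the authors' library total. Zfp57 itself was 135 RPM in wild-type E14 cells against 51.8 RPM in Zfp57-/- E14 cells (2.60-fold lower). In JB1 it was 796 and 42.9 RPM (18.5-fold lower). The listed genes held 26801865 to 66849394 reads per library, and 1 RPM stood for 50.5 to 97.0 reads. In the shallowest library, that of wild-type E14, a gene with 0 reads may still have had a level of 0.0594 RPM (3 reads). The 9 embryonic stem cell genes found summed to 3176 and 2918 RPM in wild-type and Zfp57-/- E14 cells. In JB1 they summed to 4776 and 3832 RPM. In each line 7 of the 9 were lower in the knockout and 2 were higher. Of all genes reaching 1 RPM in the line, 46.5% were lower in E14 and 48.5% in JB1. Nanog was 228 and 137 RPM in E14, beside 693 and 362 RPM in JB1, while Utf1 was 61.4 and 170 RPM in JB1. Reads of the 67 histone genes differed in E14, with 935 RPM in wild-type cells and 2499 RPM in knockout cells (JB1: 39.6 and 28.0 RPM), and the part of this in the results below was not tested.

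The families were low but uneven. Of the 58 members, 12 had no reads in any library, 11 stayed under 0.1 RPM, 19 peaked between 0.1 and 1 RPM, and 16 reached 1 RPM in at least 1 library. All 9 Xlr genes were among these 16, with Rhox1, Rhox6, Rhox9, Rhox13, Mageb4, Mageb16 and Magee1. The 12 without reads were Rhox3a, Rhox3c, Rhox3e, Rhox3f, Rhox3h, Rhox4b, Rhox4c, Rhox4g, Rhox11, Rhox12, Magea9-ps and Mageb5. Near-identical copies can share reads, so family sums are given beside single genes.

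In E14 the knockout library was higher for nearly all members that had reads. Of the 44 members with a read in either E14 library, 42 were higher in the knockout and 2, Rhox6 and Rhox9, were lower. Of all 58 members, 23 had 0 reads in the wild type and 14 in the knockout. Members with reads in the knockout alone could only count as higher. The knockout library was also deeper (70691473 against 50478922 total reads), so a lone read was likelier to fall there. Over all 18940 genes with reads 56.4% were higher and 43.6% lower. The interval of the knockout to wild-type ratio lay above 1 for 24 of the 44 members and below 1 for none, against 23.9% and 17.6% of all genes. These intervals narrow with depth, so genes with more reads pass more easily. Copies that can share reads, the Xlr genes among them, are not separate results in these counts.

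In JB1 the members with reads went in both directions. Of 38 members with reads, 15 were higher and 23 lower in the knockout, against 56.3% and 43.7% of all genes. The interval lay above 1 for 7 members and below 1 for 11, which compares with 32.7% and 27.3% of all 19725 genes with reads. The members' share below 1 was thus near that of all genes, and their share above 1 was smaller. The 11 below were the 9 Xlr genes, which are copies that can share reads, with Rhox13 and Magee1. The 7 above were Rhox6, Rhox7, Rhox9, Rhox10, Magea4, Mageb16 and Magee2.

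Larger differences were counted with a fold rule, log2((knockout RPM + 1)/(wild-type RPM + 1)) of at least 1 or at most -1, and only genes reaching 1 RPM in a library of that line entered. In E14, 10 of 16 measured members were at least 2-fold higher, the 9 Xlr genes and Rhox13, where 0.953% of 12276 genes were. The 9 Xlr genes are neighbouring copies that can share reads, so they do not count as 9 separate results. The share of all genes is therefore given as background only. Of the 10, Xlr4b, Xlr4c and Xlr5c entered only through the knockout library, where they were high, so the count is a description. None was at least 2-fold lower (0.269% of all genes). Among the 117 genes of E14 that were at least 2-fold higher, 54 were histone genes and 11 lay on chromosome X. Those 11 were the 10 members and Usp26, a testis ubiquitin protease. The other 436 measured genes of chromosome X had a median difference of -0.01, and all genes had a median of 0.02.

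The same 16 members were measured in JB1, each at 1 RPM or more in the wild-type library. None was at least 2-fold higher (2.5% of 13132 genes) or lower (1.58%). The members' median log2 difference was 1.20 in E14 and -0.32 in JB1, beside 0.01 for all genes of JB1. In E14, 5 of the 16 passed the filter only through the knockout library (Xlr4b, Xlr4c, Xlr5c, Rhox1 and Mageb4), so the E14 count and median lean upward by construction. The JB1 wild-type library, which takes no part in the E14 difference, would have picked the same 16. The fold rule depends on the added 1 RPM at these low levels, and with 5 RPM added no member passed it in E14.

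**Figure D1:**
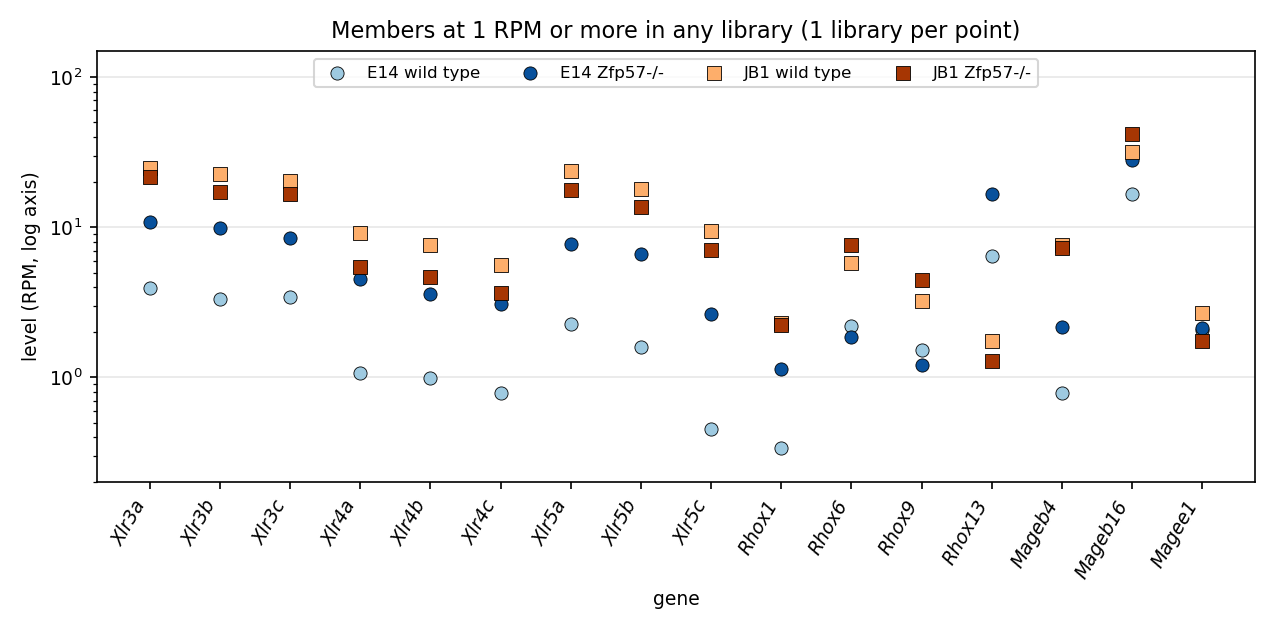
Level in RPM (log axis) of the 16 members that reached 1 RPM, with 1 point per library. The E14 wild-type library is the lowest of the 4 for all 9 Xlr genes, and Rhox13 is highest in the E14 knockout at 16.7 RPM.

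Over the 4 libraries together the Xlr genes held 25192 of the members' 41926 reads, but in the E14 wild-type library they held 903 of 2517, fewer than the Mage genes (1025). They sit in a 219 kb cluster on chromosome X (70319684 to 70538315, mm9) as 3 Xlr3, 3 Xlr4 and 3 Xlr5 copies. Promoter windows of 4 of them are printed to show the sequence at the annotated starts of genes that differed in the same direction. Each run is the RefSeq window from 250 bases before to 50 after the annotated start (GRCm38.p6, gene strand, 5′ to 3′), with every CpG, the dinucleotide that carries most DNA methylation, in capitals.
Xlr3a, chrX:73097046-73097345, minus strand: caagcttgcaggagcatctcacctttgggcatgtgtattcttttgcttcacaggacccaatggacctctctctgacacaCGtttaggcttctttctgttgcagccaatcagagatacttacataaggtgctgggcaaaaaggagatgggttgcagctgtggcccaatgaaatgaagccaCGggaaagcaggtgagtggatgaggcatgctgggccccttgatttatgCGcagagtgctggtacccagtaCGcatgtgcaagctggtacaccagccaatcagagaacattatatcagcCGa
Xlr4a, chrX:73082458-73082757, minus strand: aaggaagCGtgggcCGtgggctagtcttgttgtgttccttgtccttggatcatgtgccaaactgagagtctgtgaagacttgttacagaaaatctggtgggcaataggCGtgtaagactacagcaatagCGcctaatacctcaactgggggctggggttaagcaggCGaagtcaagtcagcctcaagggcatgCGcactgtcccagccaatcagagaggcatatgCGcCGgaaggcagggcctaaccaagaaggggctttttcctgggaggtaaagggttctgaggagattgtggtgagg
Xlr5a, chrX:73117653-73117952, minus strand: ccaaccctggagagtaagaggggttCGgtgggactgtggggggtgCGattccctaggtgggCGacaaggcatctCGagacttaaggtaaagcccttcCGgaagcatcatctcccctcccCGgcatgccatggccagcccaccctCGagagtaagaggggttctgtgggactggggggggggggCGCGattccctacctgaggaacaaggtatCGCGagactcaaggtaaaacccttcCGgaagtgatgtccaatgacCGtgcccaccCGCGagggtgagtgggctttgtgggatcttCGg
Xlr5c, chrX:73290466-73290765, minus strand: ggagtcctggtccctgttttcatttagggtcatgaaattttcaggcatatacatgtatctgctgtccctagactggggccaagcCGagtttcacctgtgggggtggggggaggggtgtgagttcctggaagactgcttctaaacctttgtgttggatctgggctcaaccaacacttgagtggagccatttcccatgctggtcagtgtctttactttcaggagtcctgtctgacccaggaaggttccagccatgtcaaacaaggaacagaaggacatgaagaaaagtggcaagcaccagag
The windows hold 5, 8, 16 and 1 CpG. The Xlr5a and Xlr5c windows differ most in CpG content, although 84.2% and 84.4% of the 50-base windows of their transcripts are also found in transcripts of another gene. The last 50 bases of the Xlr5c window, those after its annotated start, begin with ATG. That start may therefore not be where transcription begins, and whether the windows are the promoters used in these cells was not tested.

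Summed over the family, Xlr level was 17.9 RPM in wild-type E14 cells against 57.6 RPM in Zfp57-/- E14 cells, 3.22-fold higher (2.99 to 3.46). In JB1 the sum went the other way, with 141 RPM in wild-type cells and 108 RPM in knockout cells, 1.31-fold lower (1.27 to 1.35). The lines thus moved in opposite directions, and both JB1 libraries were above the E14 knockout. The tables of the lines were normalized separately, so levels across lines are set side by side only.

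The E14 difference was shared by each subfamily. Xlr3 copies summed to 10.7 RPM in wild-type cells and 29.3 RPM in knockout cells, 2.73-fold higher (2.49 to 3.01). Xlr4 copies summed to 2.85 and 11.2 RPM, 3.92-fold higher (3.28 to 4.71). Xlr5 copies summed to 4.32 and 17.1 RPM, 3.96-fold higher (3.42 to 4.59). The Xlr3 interval lies below those of Xlr4 and Xlr5, whose intervals overlap.

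In JB1 the order was partly different. Xlr4 differed most, with 22.4 and 13.8 RPM in wild-type and Zfp57-/- cells, 1.62-fold lower (1.51 to 1.75). Xlr5 was 51.1 and 38.5 RPM, 1.33-fold lower (1.27 to 1.39). Xlr3 was 67.7 and 55.4 RPM, 1.22-fold lower (1.17 to 1.27). Here the Xlr4 interval stood apart from both others.

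**Figure D2:**
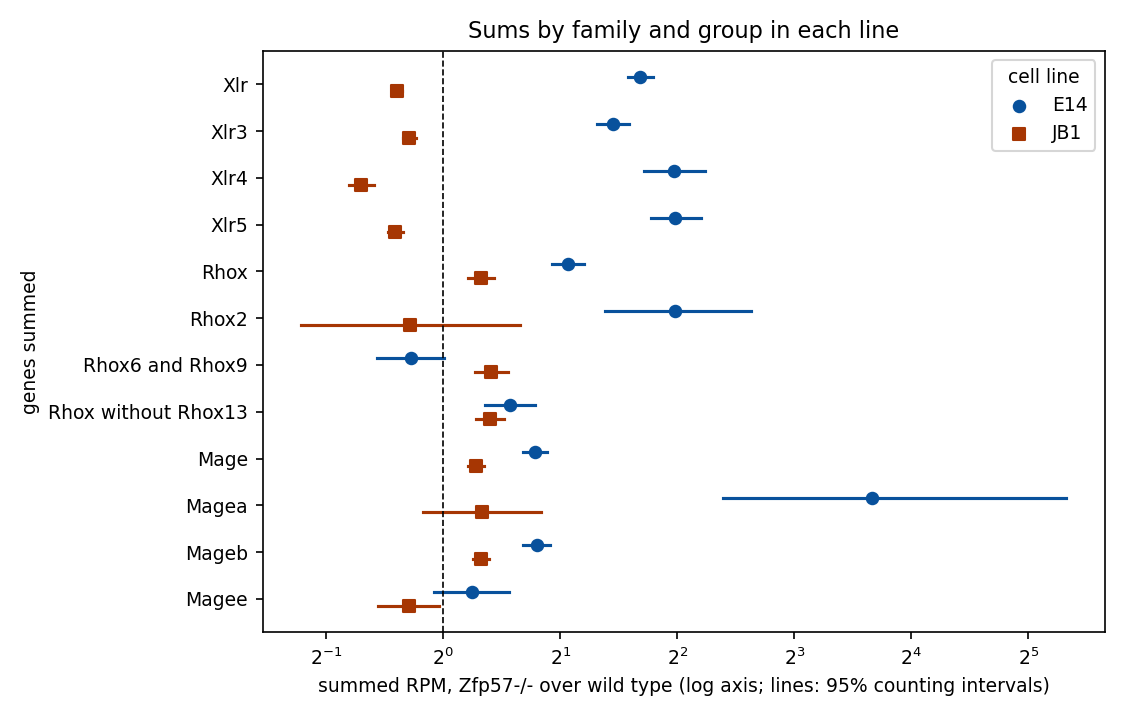
Ratio of summed RPM, Zfp57-/- over wild type (log axis), for families and groups of members in E14 (circles) and JB1 (squares), with 95% counting intervals as lines. The Xlr groups lie right of 1 in E14 and left of 1 in JB1, and the Magea interval in E14 (5.25 to 40.1) is the widest E14 interval plotted.

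Single Xlr genes followed their sums. Xlr5c had the largest E14 ratio among them, 0.456 RPM in wild-type cells and 2.63 RPM in knockout cells (5.77-fold, 3.73 to 9.34), with 9.51 and 7.10 RPM in JB1. Xlr5b was 1.58 and 6.68 RPM in E14, beside 17.9 and 13.6 RPM in JB1. Xlr5a, whose promoter window holds 16 CpG, was 2.28 and 7.78 RPM in E14 (3.42-fold, 2.79 to 4.21), beside 23.7 and 17.8 RPM in JB1.

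Of the Xlr4 copies, Xlr4a was 1.07 RPM in wild-type and 4.50 in Zfp57-/- E14 cells, then 9.16 in wild-type and 5.47 in Zfp57-/- JB1 cells. Xlr4b was 0.991, 3.59, 7.66 and 4.66 RPM in the same order, and Xlr4c was 0.792, 3.08, 5.59 and 3.67 RPM. Xlr4a had the largest JB1 difference of the family, 1.67-fold lower (1.49 to 1.88). Xlr4b and Xlr4c, with Xlr3b, are the copies known to be imprinted in brain.

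Xlr3a was 3.92 RPM in wild-type and 10.9 in Zfp57-/- E14 cells, then 24.7 in wild-type and 21.6 in Zfp57-/- JB1 cells. Xlr3b was 3.35, 9.97, 22.7 and 17.2 RPM, and Xlr3c was 3.45, 8.45, 20.3 and 16.6 RPM. Xlr3c had the smallest E14 ratio of the family (2.45-fold, 2.07 to 2.92) and Xlr3a the smallest JB1 difference (1.14-fold lower, 1.07 to 1.22). Xlr3a is also the copy with the fewest shared windows, 44.8%, against up to 90.7% for Xlr5b. Its values show both directions as well.

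In E14, genes beside the cluster differed less than the Xlr genes. Inside it, the non-members Gm14685 and DXBay18 were 3.93-fold (2.20 to 7.52) and 2.98-fold (1.56 to 6.14) higher in the E14 knockout. These 2 genes overlap Xlr5a and Xlr5b on the opposite strand by 656 and 655 bases. Whether counting used the strand is not given in the sources used here, so reads in these overlaps cannot be told apart. F8a, the third non-member inside, was 0.773 and 1.09 RPM in E14 (1.41-fold, 0.947 to 2.13). The 8 measured flanking genes, 4 on each side, had a median E14 ratio of 1.22 and a median JB1 ratio of 0.989. Their E14 ratios ran from 0.912 for Zfp275 to 1.44 for Pnma3, apart from Bgn, which had 1 and 4 reads. In JB1 they ran from 0.602 for Zfp185 to 3.73 for Dusp9. Opposite directions in the lines were not limited to the Xlr genes. Pnma5 had a ratio of 1.33 in E14 (1.23 to 1.44) and 0.674 in JB1 (0.621 to 0.732), and Pnma3 had 1.44 (1.19 to 1.73) and 0.769 (0.649 to 0.912). Inside the cluster, DXBay18 had 0.700 in JB1 (0.559 to 0.877), and Gm14685 had 0.807 (0.645 to 1.01).

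**Figure D3:**
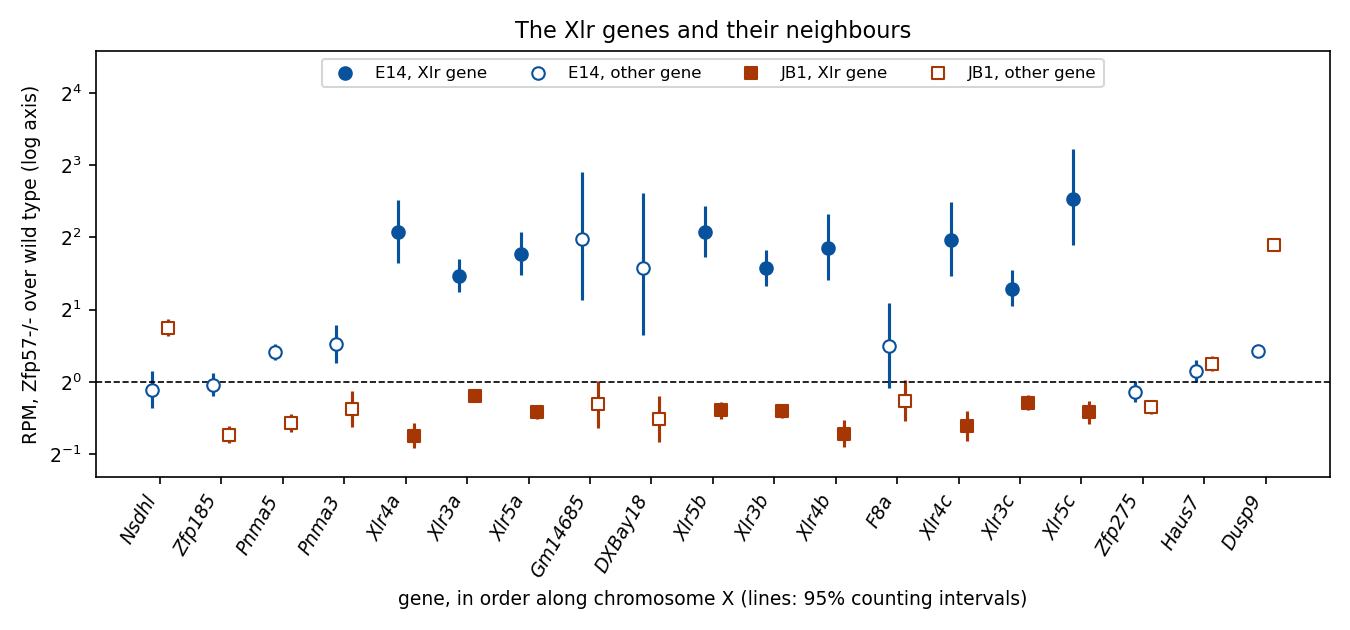
Ratio of RPM, Zfp57-/- over wild type (log axis), for the Xlr genes (filled) and the other genes inside and beside the cluster (open), in order along chromosome X, with 95% counting intervals as lines. Bgn, with 1 and 4 reads in E14, is left out. The Xlr genes of E14 lie between 2.45 and 5.77, and those of JB1 lie below 1.

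The Rhox genes span 729 kb of chromosome X (34753799 to 35483143, mm9). Their sum differed less between the genotypes than the Xlr sum, and single genes were more divided. The promoters of Rhox13, the Rhox gene with the most reads in E14, and Rhox2e, a copy whose transcript windows are all shared with other genes, are printed in the same way.
Rhox13, chrX:38120590-38120889, plus strand: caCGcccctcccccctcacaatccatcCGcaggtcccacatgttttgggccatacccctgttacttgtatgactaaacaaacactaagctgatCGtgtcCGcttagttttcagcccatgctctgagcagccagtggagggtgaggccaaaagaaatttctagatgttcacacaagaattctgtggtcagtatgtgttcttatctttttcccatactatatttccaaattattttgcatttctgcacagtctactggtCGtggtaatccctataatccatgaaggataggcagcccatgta
Rhox2e, chrX:37530218-37530517, plus strand: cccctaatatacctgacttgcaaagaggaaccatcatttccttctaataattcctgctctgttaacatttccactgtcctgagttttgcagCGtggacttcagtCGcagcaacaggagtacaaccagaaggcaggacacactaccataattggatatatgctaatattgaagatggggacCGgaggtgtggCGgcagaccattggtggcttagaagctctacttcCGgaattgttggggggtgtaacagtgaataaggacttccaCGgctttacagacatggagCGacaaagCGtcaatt
They hold 5 and 8 CpG. From base 191, counted from the 5′ end as printed, the Rhox2e window matches on its opposite strand TGCCGC, the core of the motif that ZFP57 binds when methylated.

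The Rhox sum was 11.7 RPM in wild-type E14 cells against 24.5 RPM in Zfp57-/- E14 cells, 2.10-fold higher (1.91 to 2.31). In JB1 it was 14.4 and 18.1 RPM, 1.25-fold higher (1.16 to 1.35). Rhox13, a testis homeobox gene, gave 54.8% of the E14 wild-type sum. Without it the sums were 1.48-fold higher in E14 (1.28 to 1.72) and 1.32-fold higher in JB1 (1.22 to 1.44), with overlapping intervals.

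Rhox13 was 6.40 RPM in wild-type E14 cells against 16.7 RPM in Zfp57-/- E14 cells, 2.60-fold higher (2.30 to 2.95). In JB1 it was 1.75 and 1.29 RPM, 1.36-fold lower (1.05 to 1.76). It shared no 50-base window with another gene's transcripts. Rhox13 was thus the only Rhox gene that was higher in E14 and lower in JB1 with both intervals off 1. Set side by side, its E14 levels were above its JB1 levels in both genotypes, the reverse of the Xlr genes.

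Rhox6 and Rhox9, the placental genes once called Psx1 and Psx2, went the other way. Rhox6 was 2.20 RPM in wild-type and 1.87 in Zfp57-/- E14 cells, then 5.81 in wild-type and 7.59 in Zfp57-/- JB1 cells. Rhox9 was 1.53, 1.20, 3.25 and 4.47 RPM. Their summed ratio was 0.824 in E14 (0.675 to 1.01), an interval that holds 1, and 1.33-fold higher in JB1 (1.21 to 1.47). These were the only members with reads in E14 that were lower in its knockout.

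Rhox1, a gene of Sertoli cells, was 0.337 RPM in wild-type E14 cells against 1.13 RPM in Zfp57-/- E14 cells, 3.36-fold higher (1.97 to 6.05). In JB1 it was 2.31 and 2.24 RPM, a ratio of 0.968 whose interval holds 1 (0.785 to 1.19). Rhox10, a gene of early spermatogonia, was higher in both lines. It was 0.456 and 0.948 RPM in E14 (2.08-fold, 1.28 to 3.50), beside 0.217 and 0.979 RPM in JB1 (4.52-fold, 2.61 to 8.39). Rhox10 overlaps Rhox11 by 8546 bases on the opposite strand, and Rhox11 had no reads, so a swap of reads between the genes cannot be told apart here.

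The remaining genes outside the tandem copies stayed under 1 RPM. Rhox7 was 0.0198 and 0.127 RPM in E14, beside 0.592 and 0.897 RPM in JB1 (1.51-fold, 1.03 to 2.25). Rhox8, a gene of the somatic cells of the gonads, was 0.158 and 0.212 RPM in E14, beside 0.217 and 0.361 RPM in JB1, with intervals that hold 1 in both lines.

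The tandem Rhox2, Rhox3 and Rhox4 copies lie between Rhox1 and Rhox6. The 8 Rhox2 copies together had 27 reads in E14 wild type and 149 in the knockout, 0.535 and 2.11 RPM, 3.94-fold higher (2.60 to 6.18). In JB1 they had 20 and 23 reads, a ratio of 0.820 (0.431 to 1.58). Each of the 8 had more RPM in the E14 knockout, from Rhox2a (13 and 39 reads) and Rhox2e (1 and 27 reads; ratio 19.3, 3.18 to 789) to Rhox2g (2 and 4 reads). Rhox2d had 0 and 11 reads in E14, at least 2.62-fold higher with 3 reads taken for the wild type. How reads were shared among Rhox2 copies is not known, and the sum is the safer value.

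Rhox3 and Rhox4 were close to silent. Of the 6 Rhox3 genes, 1 had reads, Rhox3b, with 2 in E14 wild type and 12 in the knockout, and it overlaps Rhox2b by 4328 bases on the same strand. The 7 Rhox4 genes had 4 reads in the E14 knockout and 0 in each of the other libraries. How the authors handled reads that map to several places is not given in the sources used here.

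Beside the Rhox cluster, 4 measured genes on each side had a median ratio of 1.03 in E14 and 0.916 in JB1. The largest E14 ratio among them was that of Gm9, which lies next to Rhox1 and had 6 reads in E14 wild type and 81 in the knockout (9.64-fold, 4.24 to 27.0). In JB1 Gm9 was 1.84 and 1.67 RPM. Rnf113a1, on the same side, was 1.69-fold higher in E14 (1.29 to 2.24) and had a ratio of 0.590 in JB1 (0.457 to 0.761), opposite directions like those of the Xlr genes. Ndufa1 was 1.22-fold higher in E14 (1.14 to 1.30) with 0.908 in JB1 (0.851 to 0.968). These 3 genes were chosen after their values were seen.

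**Figure D4:**
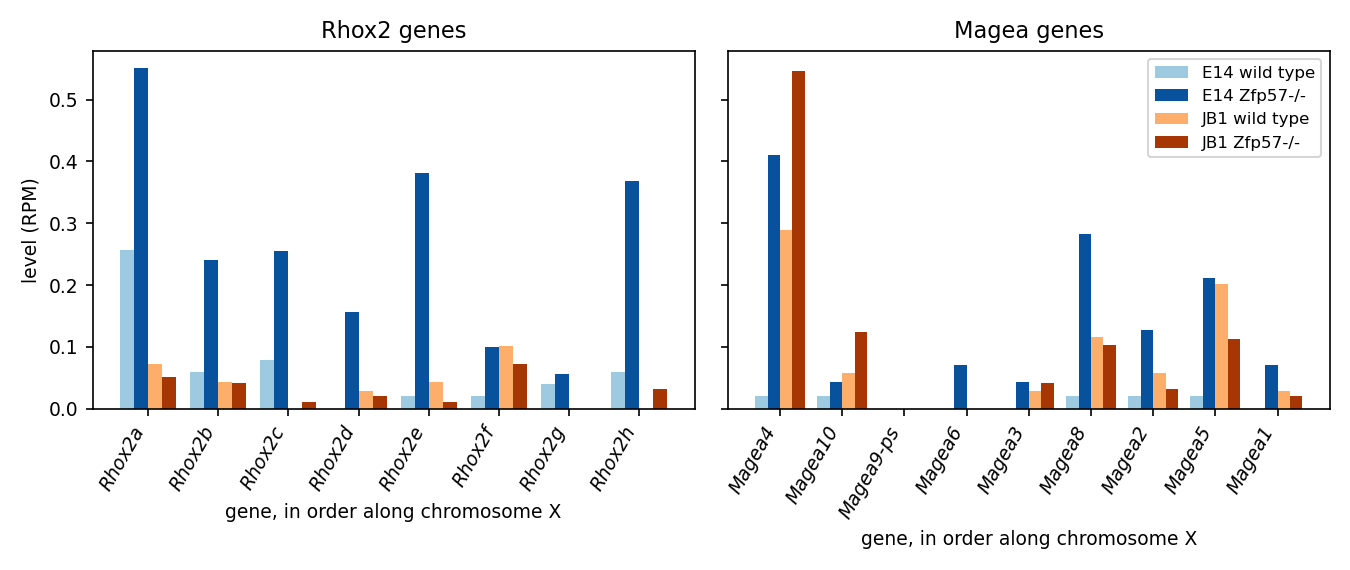
Level in RPM of the 8 Rhox2 copies (left) and the 9 Magea genes (right) in order along chromosome X, with 1 bar per library. The E14 knockout bars are the highest of the 4 for 7 of the 8 Rhox2 copies, and Magea4 reaches its highest level, 0.546 RPM, in the JB1 knockout.

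The Mage genes lie at several places on chromosome X. Promoters are printed for Mageb16, which held most Mage reads, and Magea8, a Magea gene that went from 1 to 20 reads in E14.
Mageb16, chrX:79671386-79671685, minus strand: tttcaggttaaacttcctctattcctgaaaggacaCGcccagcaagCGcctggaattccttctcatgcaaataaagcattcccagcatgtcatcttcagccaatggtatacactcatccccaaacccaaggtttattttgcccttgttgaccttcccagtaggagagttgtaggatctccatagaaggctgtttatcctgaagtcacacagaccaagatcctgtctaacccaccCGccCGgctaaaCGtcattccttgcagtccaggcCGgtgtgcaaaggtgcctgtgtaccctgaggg
Magea8, chrX:154995801-154996100, minus strand: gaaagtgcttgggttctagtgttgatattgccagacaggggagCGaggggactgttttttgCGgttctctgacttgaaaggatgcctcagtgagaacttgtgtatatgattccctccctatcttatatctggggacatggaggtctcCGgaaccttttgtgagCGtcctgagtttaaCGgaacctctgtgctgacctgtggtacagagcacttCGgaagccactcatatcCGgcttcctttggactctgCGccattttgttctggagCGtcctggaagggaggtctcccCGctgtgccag
They hold 6 and 10 CpG.

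The Mage sum was 20.3 RPM in wild-type E14 cells against 35.0 RPM in Zfp57-/- E14 cells, 1.72-fold higher (1.60 to 1.85). In JB1 it was 43.6 and 53.0 RPM, 1.22-fold higher (1.16 to 1.27). Mageb16, known from undifferentiated mouse embryonic stem cells, gave 82.2% of the sum in E14 wild type and 72.6% in JB1 wild type. Without it the sum was 1.87-fold higher in E14 (1.57 to 2.23), and in JB1 the ratio was 0.927 (0.846 to 1.02). The JB1 interval thus holds 1 once Mageb16 is left out.

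Mageb16 was 16.7 RPM in wild-type and 28.3 in Zfp57-/- E14 cells, then 31.7 in wild-type and 42.0 in Zfp57-/- JB1 cells. It was higher in both knockout libraries, 1.69-fold in E14 (1.56 to 1.84) and 1.32-fold in JB1 (1.26 to 1.40). Mageb16 shared 55.1% of its transcript windows with Mageb16-ps1 and Mageb16-ps2, so its reads may not all be its own. Per kilobase of exon it had the highest level in JB1 among members with a matched transcript, at 16.3 and 21.6 RPM per kb. In the E14 knockout Rhox13 stood above it on this scale, at 19.0 against 14.5 RPM per kb.

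Mageb4 was 0.792 and 2.16 RPM in E14 (2.73-fold, 1.92 to 3.97), beside 7.67 and 7.23 RPM in JB1, a ratio of 0.942 (0.840 to 1.06). It overlaps Mageb10-ps on the same strand, which had 0 reads in both E14 libraries and 7 and 8 reads in JB1. The other 5 Mageb genes had at most 14 reads in any library. Mageb3, the member on chromosome 2, had 5 and 14 reads in E14 and 2 and 3 in JB1.

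The Magea genes were nearly silent in E14 wild type. The 9 genes together had 5 reads there and 89 in the E14 knockout, 0.0991 and 1.26 RPM, 12.7-fold higher (5.25 to 40.1). In JB1 they had 54 and 95 reads, a ratio of 1.26 whose interval holds 1 (0.890 to 1.79). In E14 the reads were spread over 8 of the 9 genes, with no reads for Magea9-ps.

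Magea4 had 1 read in wild-type and 29 in Zfp57-/- E14 cells, then 20 in wild-type and 53 in Zfp57-/- JB1 cells. Its ratio was 20.7 in E14 (3.43 to 846) and 1.89 in JB1 (1.11 to 3.34). Magea4 shared 2.34% of its windows with other genes, the least of the Magea genes with reads apart from Magea10. Of the distal Magea cluster, Magea8 had 1, 20, 8 and 10 reads in the same order and Magea5 had 1, 15, 14 and 11. The 6 genes of this 170 kb cluster together had 3 and 57 reads in E14 (13.6-fold, 4.41 to 67.7) and 30 reads in each JB1 library (0.713, 0.416 to 1.22). The 8 nearest measured genes had median ratios of 0.893 in E14 and 0.815 in JB1. Several lie far from the cluster, which runs from 151358555 to 151528209 (mm9). Those on the left end at or before 150268786, and those on the right start between 151647675 (Sat1) and 153596618 (Phex).

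The Magee genes were unlike each other. Magee1, which binds a dystrophin-associated protein, was 2.08 and 2.12 RPM in E14 (1.02-fold, 0.790 to 1.32), beside 2.70 and 1.74 RPM in JB1, 1.55-fold lower (1.25 to 1.92). Magee2 was 0.515 and 0.948 RPM in E14 (1.84-fold, 1.15 to 3.02), beside 0.650 and 0.990 RPM in JB1 (1.52-fold, 1.06 to 2.22). The interval lay above 1 in both lines for 4 of the 36 members with reads in both, Rhox10, Magea4, Mageb16 and Magee2, a share near the 11.8% of all 18230 such genes.

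**Figure D5:**
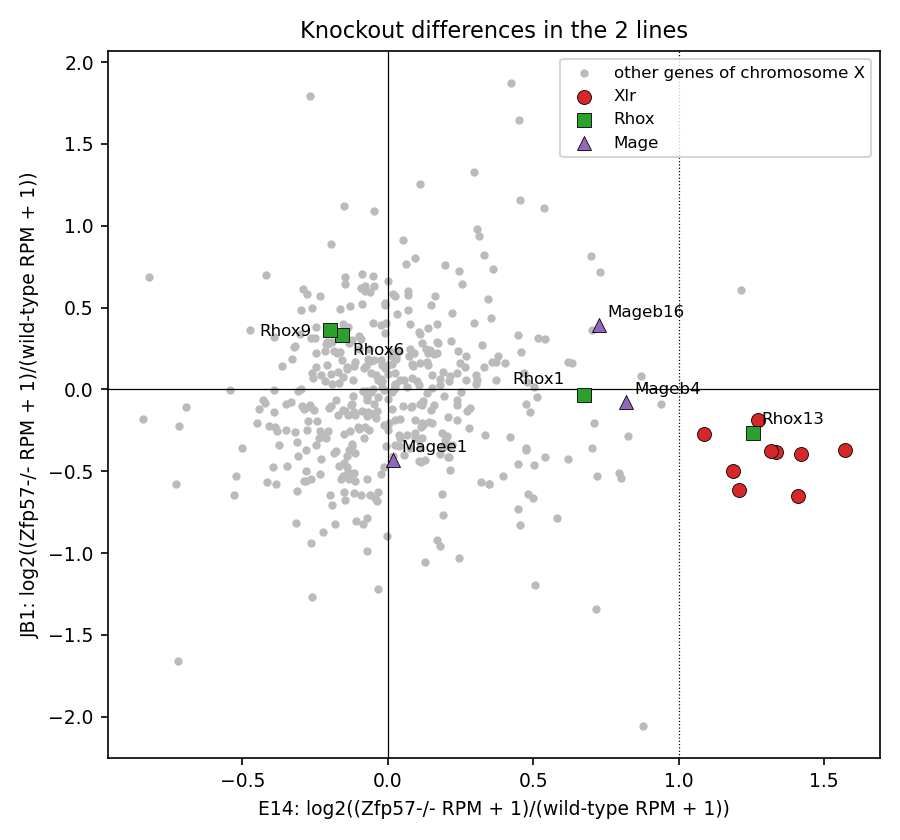
Difference log2((Zfp57-/- RPM + 1)/(wild-type RPM + 1)) in E14 (horizontal) against JB1 (vertical) for the 16 members and 421 other genes of chromosome X measured in both lines, and the dotted line marks a 2-fold difference in E14. The 9 Xlr genes and Rhox13 lie right of it and below 0 in JB1, while Mageb16 lies above 0 in both lines.

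A genotype effect common to E14 and JB1 was fitted with limma on log2(RPM + 1), with line and genotype as terms, for the 12644 genes averaging 1 RPM or more. No member of 16 passed a Benjamini-Hochberg adjusted p of 0.05, and neither did any other gene (0% called). At an unadjusted p under 0.05 there were 1 of 16 members and 1005 of all genes. That member was Mageb16, higher by 0.56 on the log2 scale (SE 0.17, limma adjusted p = 0.623). The Xlr genes, whose lines went apart, had shared effects of 0.30 to 0.60 with SE of 0.32 to 0.46. Only the second line replicates the genotype. With 1 residual degree of freedom per gene, the difference between the lines could not itself be tested.

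Promoter windows were found for 47 of the 58 members. Their median CpG count was 7, the same as over all 32851 promoters of the RefSeq table, with a range of 0 to 20. Xlr3 windows held 5 to 7, Xlr4 windows 7 or 8, Rhox2 windows 5 to 9, and the Rhox1 window 0. The motif TGCCGC, searched on both strands, was in 9 of the 47 member windows, against 11.6% of all promoters and 13.7% of those on chromosome X. It was in 5 of 7 Rhox2 windows and in those of Mageb3, Mageb4, Magee1 and Magee2. The search also covered TCCCGC and CACGTG, and of the 9 Xlr windows none held any of the 3 motifs. TCCCGC, bound by E2F6, was in the Magee2 window alone (2.13%, against 20.0% of all promoters). CACGTG, the E-box, was in 4 Rhox4 windows (8.51%, against 7.15%).

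Within subfamilies the windows at the annotated starts ranged from near-identical to unlike sequence. Where the annotation places each start also sets this identity, and its part was not tested. Identity was 78.3% to 93.3% between Xlr4 windows and 41.7% to 70% between Xlr5 windows. Rhox2 windows were 71.7% to 99.7% identical, and Magea windows 44% to 85.3%.

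Other germline and MAGE genes were set beside the families as lists. Over all measured genes, 53.5% were higher in the E14 knockout and 48.5% were lower in the JB1 knockout. Of 22 germline genes known to be silenced by DNA methylation, 19 were measured in E14, and 18 of these were higher in the knockout, none 2-fold (median 0.54). In JB1, 15 of 21 were lower (median -0.20), 5 of them at least 2-fold, against 1.58% of all measured genes. Mael, a piRNA pathway gene, was 7.59 and 14.7 RPM in E14, beside 16.1 and 9.32 RPM in JB1, opposite directions like those of Xlr. Of other X-linked germline genes, 6 of 7 were higher in E14, with Usp26 beyond 2-fold (1.27 and 4.26 RPM), and 9 of 13 were lower in JB1, with Taf7l and Nxf2 beyond 2-fold. The 7 measured MAGE genes outside the set, such as Maged1 (48.2, 53.2, 56.4 and 66.0 RPM), had medians of 0.14 and -0.10 and none was 2-fold different.

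Markers of cell types that use these families were read in the same libraries. The 14 trophoblast genes summed to 21.7 RPM in wild-type and 22.1 in Zfp57-/- E14 cells, then 47.4 in wild-type and 59.7 in Zfp57-/- JB1 cells, with Prl3d1 and Tpbpa at 0 reads in all 4. In E14, 5 of 6 measured trophoblast genes were higher in the knockout (median 0.29), against 53.5% of all measured genes. Tead4, the most abundant, was 10.9 and 7.38 RPM. In JB1, 4 of 7 were higher, near the 51.5% of all measured genes, with Krt8 beyond 2-fold (5.79 and 13.96 RPM). The measured genes that were lower in JB1 were Gata3, Tead4 and Ascl2, with ratios of 0.748, 0.905 and 0.994. Plac1, Gcm1, Hand1 and Cdx2 were 3.48- to 9.99-fold higher at levels of 0.402 to 1.10 RPM in the JB1 knockout. They were picked after their values were seen and rest on 3 to 21 reads in the JB1 wild type. The E14 sum thus hides differences in both directions.

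The 10 primordial germ cell genes summed to 78.2, 78.0, 261 and 245 RPM, and again differed in both directions. In E14, Prdm14 was at least 2-fold lower (16.9 and 7.94 RPM) and Dazl was 10.6 and 22.1 RPM. In JB1, Kit was at least 2-fold higher (32.1 and 72.0 RPM). The 10 fibroblast genes summed to 4.64, 4.99, 12.5 and 17.6 RPM, with Dcn at 0 reads in all 4 libraries. In JB1, 3 of the 4 measured fibroblast genes were higher, against 51.5% of all measured genes. Thy1 was among them (3.61 and 7.95 RPM), and Twist1 was at least 2-fold lower. Genes of the 2-cell-like state, a rare state of embryonic stem cell cultures, summed to 28.4, 43.8, 10.1 and 16.0 RPM, higher in both knockouts. All 8 measured in E14 were higher in its knockout, and 7 of 8 in JB1, against 53.5% and 51.5% of all measured genes. The gene that was lower in JB1 was Zfp352, with 1.24 and 0.505 RPM there and 0.475 and 1.06 RPM in E14. The part of any of these markers in the family values was not tested. In bulk RNA, a change in the number of cells that use a gene and a change per cell cannot be told apart.

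In a list of genes of DNA methylation and of repressors of germline genes, Dnmt3a was 24.9 and 27.6 RPM in E14, beside 19.9 and 84.9 RPM in JB1. Dnmt3b was 47.7 and 67.2 RPM in E14, beside 61.4 and 145 RPM in JB1. Both encode de novo DNA methyltransferases and were at least 2-fold higher in the JB1 knockout, as 2.5% of all measured genes were. Of the 17 genes of this list none was 2-fold different in E14, and Tet2 was at least 2-fold lower in JB1. Of the 17, 11 were lower in the E14 knockout and 10 in the JB1 knockout, beside 46.5% and 48.5% of all measured genes. The part of these genes in the family values was not tested.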

How the data were processed

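The RNA-seq libraries were grouped by line and genotype as their titles give them. Each line has a table deposited by the authors, in which a gene's value is the log2 of its RPM. The submitters' processing notes name TopHat2 2.0.8b, CASAVA 1.8.2 and cutadapt, and the build mm9. For the annotation, counting tool, strand setting and multi-mapped reads, the choice is not given in the sources used here. Genes with no reads carry the value of 0.9 reads, and whole reads were recovered for 100% of values (relative tolerance 0.0001).

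From these values RPM, read sums and ratios with exact conditional binomial (Clopper-Pearson) 95% intervals were computed (Python 3.11.15, scipy 1.17.1). These intervals and the limits for 0 reads cover counting error only, as there was 1 library per line and genotype. They take every read as a separate molecule. Reads lacking molecular identifiers cannot show this, so the intervals may be too narrow even for counting error. The shared effect was fitted with limma 3.58.1 in R 4.3.3 (pseudocount 1 RPM, eBayes with trend), tested first on simulated data. The deposited values are log2 values, and no count model was fitted to the reads recovered from them. Every member with at least 1 RPM in any library is named, and the rest are given by values, ranges or counts. Sequence sharing was counted as the share of 50-base windows of a gene's transcripts (GENCODE M21) found in those of other genes, and these transcripts gave exon lengths. Promoters came from RefSeq (GRCm38.p6). Coordinates of genes and clusters are those of the tables. The members and lists were chosen with earlier results of these data known.

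Alternatives changed the pseudocount, the filter, the scale and the members summed. The line term of the limma fit pairs knockout with wild type within each line, and the labels carry no replicate numbers for a further block.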

Additional observations from a re-analysis of the deposited data

Results flagged for a closer look

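Xlr genes and Rhox13 were higher in the E14 knockout and lower in the JB1 knockout, with counting intervals off 1 in both lines. With 1 library per line and genotype this difference between the lines was not tested. As the E14 knockout to wild-type ratio divided by the JB1 ratio, it was 4.22 for the Xlr sum. Among single genes it was largest for Xlr5c (7.73) and Xlr4a (7.04). It was 5.96 for Xlr4b, 5.93 for Xlr4c, 5.54 for Xlr5b and 4.54 for Xlr5a. The Xlr3 copies had 3.94 (Xlr3b), 3.17 (Xlr3a) and 2.99 (Xlr3c), and Rhox13, which shares no window with another gene, had 3.53.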

How the results depend on the processing

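Of 82 values recomputed under an alternative, 65 stayed close to the reported value. Many of these were counts of 0 that stayed 0. They were the members at least 2-fold lower in E14, those at least 2-fold higher or lower in JB1, and the limma counts. As limma called no gene in any setting, its counts had no room to move, and the tally says little about the other values. The count of 10 members at least 2-fold higher in E14 became 0 with 5 RPM added and 6 with a filter of 5 RPM, and it was 10 with a filter on the mean of the line, chosen after seeing the data. The E14 median of 1.20 became 1.47 and 0.57 with 0.1 and 5 RPM added, and 0.39 and 0.10 with a filter of 0.1 RPM and with no filter. The JB1 median of -0.32 became -0.21 with 5 RPM added, -0.057 with a filter of 0.1 RPM and 0 with no filter, since genes with few reads have differences near 0 on this scale. Without the member with the most reads, the ratio of the Rhox sum in E14 was 1.48, of the Mage sum 1.87 in E14 and 0.927 in JB1, the last a reversal, and of the Xlr sum in JB1 0.739. With only members under 50% shared windows, also chosen after seeing the data, Xlr left Xlr3a alone (2.77 in E14, 0.875 in JB1), and the Mage sum had 1.54 in E14 and 0.903 in JB1, a reversal. No scaling alternative changed a direction. Leaving out members with near-identical proteins was not run, because no protein sequences were used. Leaving out a line leaves limma no residual degrees of freedom, so it gave no value. The limma fit already pairs knockout with wild type within each line, and no further pairing was fitted because the labels carry no replicate numbers. Depth limits the Rhox2, Rhox3, Rhox4 and Magea values most, where single genes rest on 0 to 53 reads.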
